A study of Mus musculus with 15 samples.

Results

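Retinoids are signalling molecules made from vitamin A, and 9 genes of their handling were followed through the thoracic aorta of mice treated once, by mouth, with a drug that selectively inhibits cyclooxygenase-2 or with vehicle. The genes were Dhrs9, Rdh10, Aldh1a1, Aldh1a2, Cyp26b1, Rara, Rarb, Rbp4 and Stra6. They were taken by symbol from a count table of 37681 genes, and all 9 were among the 15134 genes with enough counts to be tested. Dhrs9 was chosen because it had the smallest p of all genes tested between celecoxib and vehicle in these libraries. Its levels are therefore given as a description with no p-value between groups, and calls of it are not read as a result. The celecoxib group received 30 mg/kg of celecoxib, a diaryl pyrazole sulfonamide, and the rofecoxib group 10 mg/kg of rofecoxib, a diaryl furanone methylsulfone. The vehicle group received PEG-400, a polyethylene glycol. Each group held 5 adult male wildtype C57BL/6 mice of 10 to 12 weeks, dosed by gavage with 100 microlitres, and tissue was taken after 6 hours, at Zeitgeber hour 11. Polyadenylated RNA of each aorta was sequenced as 1 library, and libraries summed to between 30937046 and 30967115 deposited counts.

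Retinol travels in blood on the binding protein encoded by Rbp4 and can enter cells through the membrane receptor Stra6. Retinol dehydrogenases such as Rdh10 and Dhrs9 oxidise it to retinaldehyde, and the retinaldehyde dehydrogenases Aldh1a1 and Aldh1a2 make retinoic acid. Retinoic acid binds the nuclear receptors Rara and Rarb, which act with retinoid X receptors on target genes, and Cyp26b1 clears it by oxidation. Rarb is itself a classical target of retinoic acid, through a direct repeat of the receptor's half-site in its promoter.

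The sequence just upstream of the start site was read for 8 of the 9 genes from RefSeq windows on GRCm38.p6, each from 250 bases before to 50 after an annotated start. Direct repeats of the half-site AGGTCA, with 1, 2 or 5 bases between the copies, were searched on both strands. A copy could also read GGGTCA. The form AGTTCA, found in known retinoic acid response elements, was accepted too, and so was the related form GGTTCA. Of 16 windows of the 8 genes, that of Rarb held 1 match, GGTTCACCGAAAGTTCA, with 5 bases between the half-sites, ending 36 bases before the start. The other windows held none. Both half-sites of the Rarb match were forms added to the search, and Rarb is known to carry such a repeat. The match was therefore anticipated from how the search was built and is no new result. A repeat with 5 bases between was present in 0.0974% of all 32851 windows, and any of the 3 spacings in 0.588%. These letters describe the window and do not show that a receptor was bound in these aortas. The windows of Rarb, of Cyp26b1, which moved with Rarb across libraries, and of Dhrs9, the gene with the largest difference, are shown 5′ to 3′ on the gene's strand, with the repeat in capitals. They lie at chr14:16575427-16575726 on the minus strand, chr6:84593761-84594060 on the minus strand and chr2:69380212-69380511 on the plus strand.
Rarb: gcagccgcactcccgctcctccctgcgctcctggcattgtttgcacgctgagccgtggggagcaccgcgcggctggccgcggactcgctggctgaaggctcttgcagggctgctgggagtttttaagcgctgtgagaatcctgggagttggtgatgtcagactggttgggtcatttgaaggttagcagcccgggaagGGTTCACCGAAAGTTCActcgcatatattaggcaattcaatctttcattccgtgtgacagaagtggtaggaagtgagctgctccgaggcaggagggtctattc
Cyp26b1: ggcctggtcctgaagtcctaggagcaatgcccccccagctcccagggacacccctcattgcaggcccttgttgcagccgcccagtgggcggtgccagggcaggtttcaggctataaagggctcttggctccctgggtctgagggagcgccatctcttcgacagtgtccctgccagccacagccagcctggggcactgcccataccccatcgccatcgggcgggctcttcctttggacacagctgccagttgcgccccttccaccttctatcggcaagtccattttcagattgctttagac
Dhrs9: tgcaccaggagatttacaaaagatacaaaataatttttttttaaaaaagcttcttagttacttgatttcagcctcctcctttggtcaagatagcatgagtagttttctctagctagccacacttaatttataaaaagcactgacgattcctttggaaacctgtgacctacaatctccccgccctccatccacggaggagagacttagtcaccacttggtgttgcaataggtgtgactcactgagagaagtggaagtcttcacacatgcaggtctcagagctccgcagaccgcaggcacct

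Levels are in CPM, a gene's count as a share of the scaled library size times a fixed constant, and levels of different genes are compared per kilobase of exon. Rbp4 led with a mean of 115 CPM per kilobase over the 15 libraries, followed by Aldh1a1 at 14.4. Cyp26b1, Rara, Rdh10 and Rarb lay between 3.56 and 5.11 CPM per kilobase. Aldh1a2 at 0.569, Dhrs9 at 0.475 and Stra6 at 0.101 CPM per kilobase were the lowest. Smooth muscle markers such as Myh11 summed to between 40253 and 56791 CPM per library, and markers of fat, endothelial cells and fibroblasts were present in every library too. In bulk tissue such as this, fewer cells of a type and less RNA per cell cannot be told apart.

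With p-values of edgeR's quasi-likelihood test adjusted over all genes (Benjamini-Hochberg), 0 of the 9 genes were called in any of the 3 comparisons, where 0% of the 15134 genes were called in each. DESeq2 called 1 of 9, Dhrs9, between celecoxib and vehicle (0.833% of all genes), 0 of 9 between rofecoxib and vehicle (0%) and 0 of 9 between celecoxib and rofecoxib (0.126%). At an unadjusted p under 0.05 in edgeR, 4 of 9 passed between celecoxib and vehicle (12.5% of all genes), 1 higher (5.35%) and 3 lower (7.18%). Between rofecoxib and vehicle 1 of 9 passed (5.18%), with 0 higher (1.47%) and 1 lower (3.71%). Between celecoxib and rofecoxib 6 of 9 passed (6.96%), 3 higher (4.05%) and 3 lower (2.91%), and Dhrs9 was among the lower genes each time. With Dhrs9 chosen on these libraries, and the comparisons sharing libraries, nothing is read from those shares or from the DESeq2 call of Dhrs9. The median log2 fold change of the 9 genes was -0.25 between celecoxib and vehicle, -0.12 between rofecoxib and vehicle and -0.12 between celecoxib and rofecoxib. All genes tested gave 0.00512, -0.000666 and 0.00517 in the same order. The medians of the 9 genes include Dhrs9, so nothing is read from them either. The compounds were given at different doses, so every value of celecoxib against rofecoxib sets 30 mg/kg beside 10 mg/kg.

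**Figure D1:**
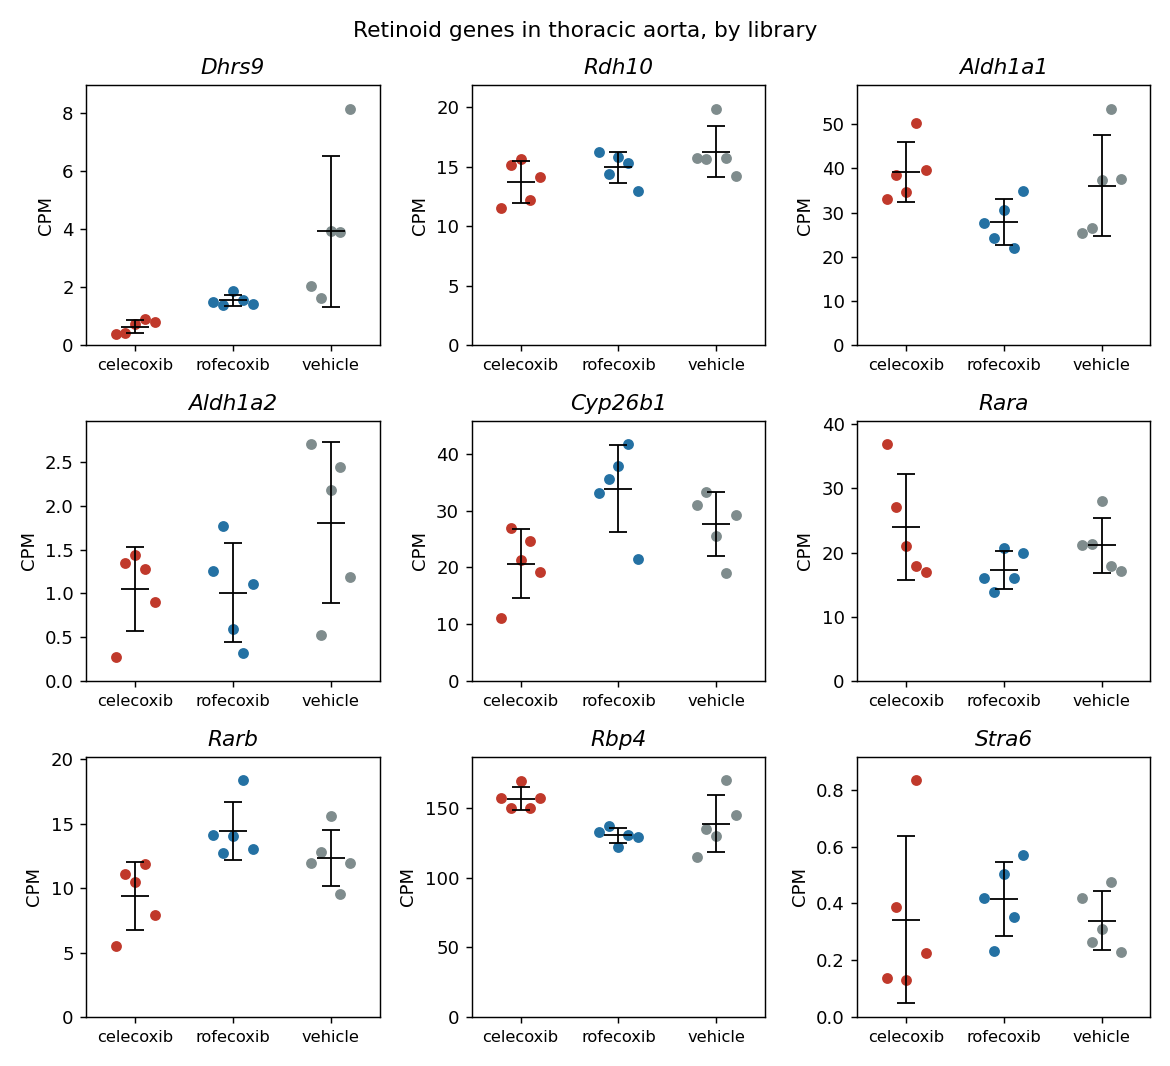
Level of each of the 9 genes in CPM (vertical axis, from 0) in celecoxib, rofecoxib and vehicle libraries, with 1 point per library, the group mean as a line and the SD as a bar. Dhrs9 was at 0.373 to 0.898 CPM in the celecoxib libraries, 1.40 to 1.86 CPM in rofecoxib and 1.61 to 8.14 CPM in vehicle.

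Dhrs9 encodes a short-chain dehydrogenase that oxidises retinol and also some hydroxysteroids. It lies on chromosome 2 from 69218300 to 69242792 of mm9 (ENSMUSG00000027068). It stood at 0.373, 0.418, 0.722, 0.898 and 0.810 CPM in celecoxib libraries 1 to 5, at 1.48, 1.40, 1.86, 1.54 and 1.42 CPM in rofecoxib, and at 2.02, 1.61, 3.92, 3.90 and 8.14 CPM in vehicle. No celecoxib library reached the lowest rofecoxib or vehicle library, and rofecoxib libraries lay close together near the low end of vehicle. Behind these levels were 11 to 28 counts in celecoxib libraries, 42 to 59 in rofecoxib and 49 to 248 in vehicle. The means were 0.644 ± 0.236 CPM in celecoxib, 1.54 ± 0.186 CPM in rofecoxib and 3.92 ± 2.59 CPM in vehicle (SD, n = 5 each). Its log2 fold change was -2.60 ± 0.40 (SE), or 0.165-fold, for celecoxib against vehicle. For rofecoxib against vehicle it was -1.34 ± 0.37 (SE), or 0.394-fold, and without vehicle 5, the highest library, it was -0.89. Celecoxib set against rofecoxib gave -1.25 ± 0.39 (SE), or 0.420-fold.

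Markers of brown fat, which lies around the thoracic aorta, moved with Dhrs9 when group differences were left in. The 12 markers listed, all tested, summed to 279 to 779 CPM in celecoxib libraries, 442 to 727 CPM in rofecoxib and 707 to 1977 CPM in vehicle. Vehicle 5 was highest and celecoxib 2 was lowest by these markers. Between Dhrs9 and the marker mean Pearson's r was 0.79 and Spearman's rho 0.80 over the 15 libraries, and r was 0.61 without celecoxib 2 and vehicle 5. These values hold the difference between groups on which Dhrs9 was chosen, so nothing is read from them. With group means subtracted r was 0.56 (permutation p = 0.0310, adjusted 0.256) and rho 0.54 (permutation p = 0.0407, adjusted 0.288), adjusted over 99 pairs of a gene and a marker list. Neither passed the adjusted threshold. With the mean of fat cell markers as a covariate, the log2 fold change of Dhrs9 was -1.72 for celecoxib and -0.74 for rofecoxib, each against vehicle, and -0.98 between celecoxib and rofecoxib. Beyond these values, the part of the markers in the Dhrs9 differences was not tested.

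**Figure D2:**
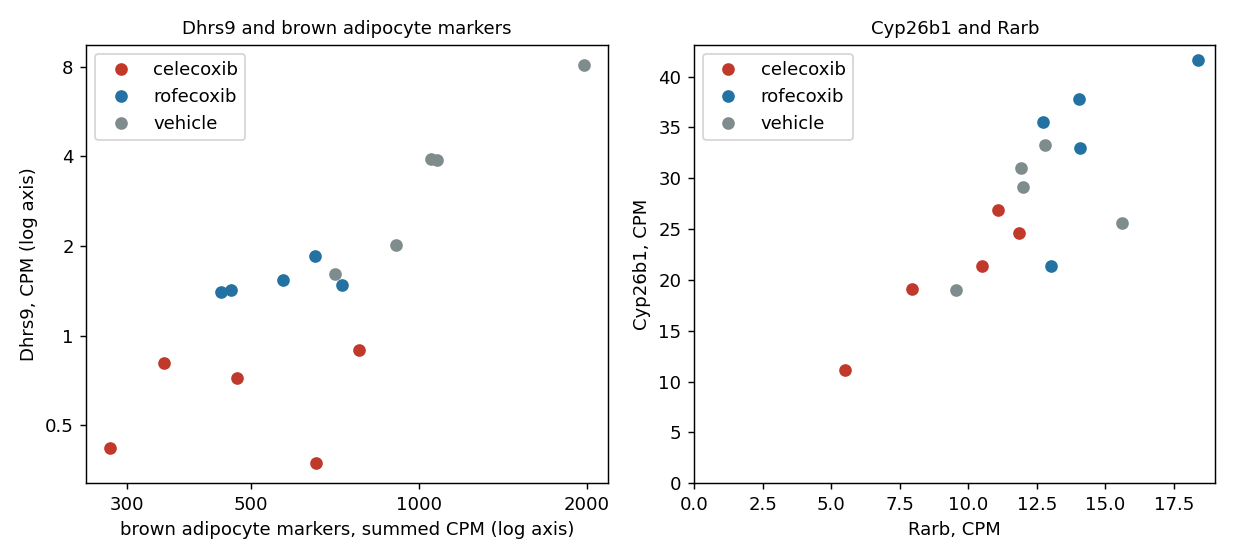
Left, Dhrs9 level against the summed level of 12 brown fat markers, both in CPM on log axes. Right, Cyp26b1 level against Rarb level, both in CPM on linear axes from 0. Each point is 1 library, and celecoxib libraries lie lowest in Dhrs9 while celecoxib 1 lies lowest in both Rarb and Cyp26b1.

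The second retinol dehydrogenase, Rdh10, supplies most of the retinaldehyde of the mouse embryo and lies on chromosome 1 from 16095653 to 16124017 of mm9. Rdh10 stood at 11.5 to 15.6 CPM in celecoxib libraries, with a median of 14.2, at 13.0 to 16.2 CPM in rofecoxib, with a median of 15.3, and at 14.2 to 19.9 CPM in vehicle, with a median of 15.7. The 3 ranges overlapped, and vehicle 3 stood alone at the top. The log2 fold change was -0.25 ± 0.10 (SE) for celecoxib against vehicle, with a Benjamini-Hochberg adjusted p of 0.357 in edgeR's quasi-likelihood test, and -0.15 without vehicle 3. Against rofecoxib it was -0.12, with a 95% interval of -0.35 to 0.10. All 5 celecoxib libraries lay below the vehicle median for Rdh10, as they did for Dhrs9, Aldh1a2, Cyp26b1 and Rarb. How many of all genes did so was not counted, and nothing is read from it.

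Aldh1a1, the retinaldehyde dehydrogenase with the higher level of the pair, on chromosome 19 from 20676249 to 20718154, stood at 33.0, 38.6, 34.6, 50.2 and 39.7 CPM in celecoxib libraries 1 to 5, at 27.7, 24.2, 30.5, 22.0 and 34.998 CPM in rofecoxib, and at 25.4, 26.4, 37.5, 53.5 and 37.6 CPM in vehicle. All 5 celecoxib libraries lay above the rofecoxib median, while vehicle spanned both. For celecoxib against rofecoxib the log2 fold change was 0.49 ± 0.19 (SE), or 1.41-fold, with a Benjamini-Hochberg adjusted p of 0.673 in edgeR's quasi-likelihood test. For rofecoxib against vehicle it was -0.37 ± 0.19 (SE), and -0.18 without vehicle 4. Celecoxib against vehicle gave 0.12 ± 0.19 (SE), a value that lay between 0.02 and 0.31 when single libraries were left out.

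In each group, Aldh1a1 was highest in the library that led for markers of sympathetic neurons, which reach the aorta through the fat around it. The 10 markers summed to 4.98 to 662 CPM in celecoxib libraries, 7.45 to 419 CPM in rofecoxib and 7.39 to 276 CPM in vehicle. Celecoxib 4, rofecoxib 5 and vehicle 4, the top library of each group for these markers, were also the top library of each group for Aldh1a1. Over the 15 libraries Pearson's r was 0.66 (permutation p = 0.00732, adjusted 0.0928) and Spearman's rho 0.65 (permutation p = 0.0100, adjusted 0.157). With group means subtracted r was 0.83 (permutation p = 7e-05, adjusted 0.00346) and rho 0.83 (permutation p = 0.00016, adjusted 0.0158), adjusted over the 99 pairs. Between groups the order was looser, as celecoxib 5 held 12.5 CPM of these markers and 39.7 CPM of Aldh1a1, and rofecoxib 3 held 216 and 30.5 CPM. Schwann cell markers moved with Aldh1a1 too, with r of 0.64 (adjusted permutation p = 0.110) and rho of 0.65 (adjusted permutation p = 0.157). With group means subtracted both were 0.76 (adjusted permutation p = 0.0220 for r and 0.0515 for rho). The part of either marker list in the levels of Aldh1a1 was not tested.

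Aldh1a2, the main retinoic acid-making enzyme of the early mouse embryo, lies on chromosome 9 from 71063394 to 71144252 and was scarce here. Celecoxib libraries held 0.271 to 1.44 CPM of Aldh1a2, rofecoxib 0.321 to 1.77 CPM and vehicle 0.527 to 2.70 CPM. Each group spanned several-fold, and the groups overlapped. The log2 fold change was -0.78 ± 0.51 (SE) for celecoxib and -0.84 ± 0.51 (SE) for rofecoxib against vehicle, and the first had a Benjamini-Hochberg adjusted p of 0.566 in edgeR's quasi-likelihood test. These comparisons share the vehicle libraries. Mesothelium, the covering of serous cavities, is known to express Aldh1a2, and 6 of 14 mesothelial markers were tested. Their list summed to 23.5 to 39.4 CPM in celecoxib libraries, 20.5 to 25.5 CPM in rofecoxib and 19.0 to 27.5 CPM in vehicle, with Msln, Upk3b and Wt1 too scarce to test. Between celecoxib and rofecoxib the 95% interval of -1.04 to 1.16 on the log2 scale ran, as a ratio, from 0.486-fold to 2.23-fold.

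**Figure D3:**
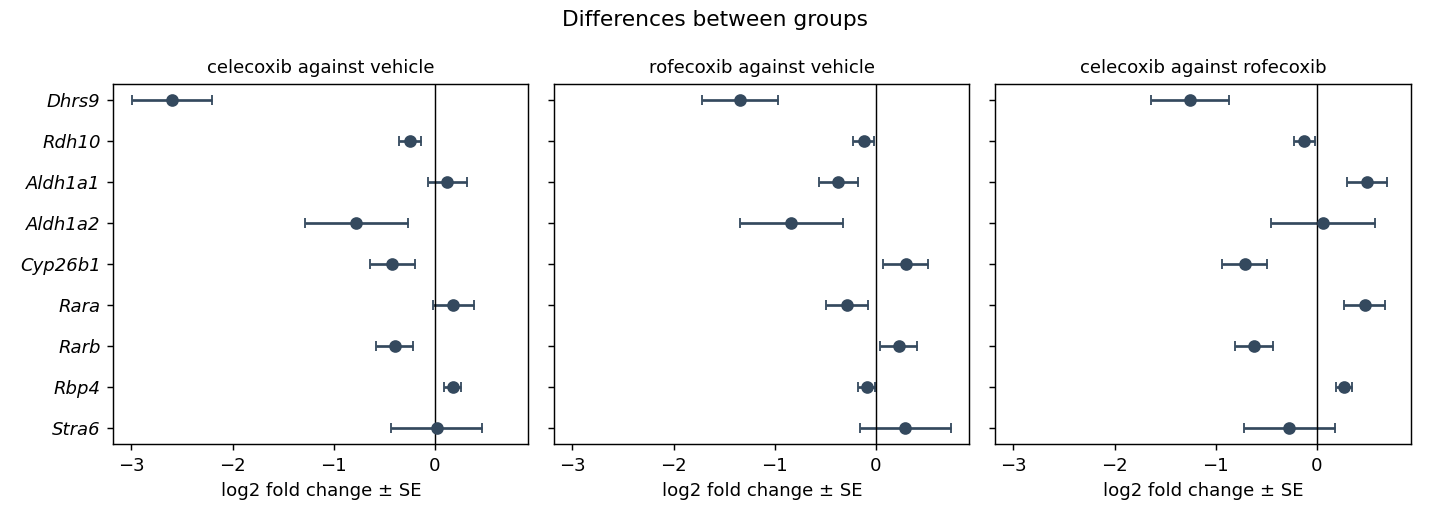
Log2 fold change (horizontal axis) of each of the 9 genes, in 1 panel each for celecoxib and rofecoxib against vehicle and for celecoxib against rofecoxib, with points for the estimate and bars for 1 SE. Dhrs9 lies at -2.60, -1.34 and -1.25, while Rarb and Cyp26b1 lie below 0 for celecoxib and above 0 for rofecoxib, each against vehicle.

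Cyp26b1, a cytochrome P450 that clears retinoic acid, and Rarb, the retinoic acid receptor that retinoic acid itself induces, shared a pattern. Cyp26b1 lies on chromosome 6 from 84521736 to 84543942 and Rarb on chromosome 14 from 17263154 to 17651583 of mm9. Cyp26b1 stood at 11.2, 26.9, 21.3, 24.6 and 19.1 CPM in celecoxib libraries 1 to 5, at 33.0, 35.5, 37.8, 41.6 and 21.4 CPM in rofecoxib, and at 31.0, 33.3, 25.6, 19.0 and 29.2 CPM in vehicle. Rarb stood at 5.49, 11.1, 10.5, 11.9 and 7.94 CPM in celecoxib libraries 1 to 5, at 14.1, 12.7, 14.0, 18.4 and 13.0 CPM in rofecoxib, and at 11.9, 12.8, 15.6, 9.55 and 12.0 CPM in vehicle. Every celecoxib library lay below every rofecoxib library for Rarb, and vehicle libraries fell between and across both. For Cyp26b1, rofecoxib 5 lay among the celecoxib libraries. The Rarb locus overlaps Top2b, which held 4858 counts per library on average, and since no source used here says whether counting used strand, counts of Rarb are uncertain.

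The log2 fold change of Rarb was -0.62 ± 0.19 (SE), or 0.649-fold, for celecoxib against rofecoxib, with a 95% interval of -1.02 to -0.22 and a Benjamini-Hochberg adjusted p of 0.649 in edgeR's quasi-likelihood test. For Cyp26b1 it was -0.71 ± 0.22 (SE), or 0.609-fold, with an interval of -1.20 to -0.23 and the same adjusted p of 0.649 by that test in edgeR. Against vehicle, celecoxib gave -0.40 ± 0.19 (SE) for Rarb and -0.42 ± 0.22 (SE) for Cyp26b1, and rofecoxib gave 0.22 ± 0.19 and 0.29 ± 0.22 (SE). None of these passed. Without celecoxib 1, the lowest library for both genes, celecoxib against vehicle gave -0.25 for each of the 2 genes. Celecoxib against rofecoxib then gave -0.48 for Rarb and -0.56 for Cyp26b1. Without rofecoxib 4 the value of Rarb for rofecoxib against vehicle was 0.12.

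Across all 15 libraries Cyp26b1 and Rarb moved together. Pearson's r was 0.87 (permutation p = 8e-05, adjusted 0.00288) and Spearman's rho 0.76 (permutation p = 0.00167, adjusted 0.0301), adjusted over the 36 pairs of the 9 genes. Without celecoxib 1 and rofecoxib 4, the libraries farthest from the median of Rarb, r was 0.67. With group means subtracted r was 0.78 (permutation p = 0.00056, adjusted 0.0202) and rho 0.70 (permutation p = 0.0049, adjusted 0.0882), so the rank measure then missed the threshold. It was the only 1 of the 36 pairs to pass by both measures before group means were subtracted. The Cyp26b1 window printed above held no direct repeat of the searched half-sites.

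Genes that respond to glucocorticoids marked celecoxib 1 as well. The 10 listed targets summed to 6926 CPM in celecoxib 1 and 1096 to 2136 CPM in the other celecoxib libraries, to 947 to 1171 CPM in rofecoxib and to 745 to 1525 CPM in vehicle. Cyp26b1 ran against them, with r of -0.82 (permutation p = 0.00055, adjusted 0.0234) and rho of -0.76 (permutation p = 0.00137, adjusted 0.0678) over 15 libraries, and r of -0.59 without celecoxib 1 and celecoxib 3. With group means subtracted r was -0.72 (adjusted permutation p = 0.0393) and rho -0.64 (adjusted permutation p = 0.204). With the mean of these targets as a covariate, chosen after seeing the data, celecoxib against rofecoxib gave -0.28 for Cyp26b1 and -0.34 for Rarb, in place of -0.71 and -0.62.

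Rara, the broadly expressed retinoic acid receptor, lies on chromosome 11 from 98788930 to 98836458. It stood at 36.8, 27.1, 20.9, 18.0 and 17.0 CPM in celecoxib libraries 1 to 5, at 15.997, 13.9, 20.6, 16.03 and 19.98 CPM in rofecoxib, and at 21.2, 21.3, 28.0, 18.0 and 17.1 CPM in vehicle. Celecoxib 1, the lowest library for Rarb, was the highest for Rara, and the other celecoxib libraries, at 17.0 to 27.1 CPM, covered nearly the range of the vehicle libraries. The log2 fold change for celecoxib against rofecoxib was 0.47 ± 0.20 (SE), or 1.39-fold, with a Benjamini-Hochberg adjusted p of 0.706 in edgeR's quasi-likelihood test. Without celecoxib 1 it was 0.26, and celecoxib against vehicle gave -0.01 in place of 0.18. Rofecoxib against vehicle gave -0.29 ± 0.20 (SE), and -0.15 without vehicle 3.

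Retinol delivery was represented by a very abundant and a very scarce transcript. Rbp4, made mainly by liver and also by fat, lies on chromosome 19 from 38190908 to 38200013. It stood at 157, 150.2, 169.8, 149.9 and 158 CPM in celecoxib libraries 1 to 5, at 133, 137, 122, 131 and 129 CPM in rofecoxib, and at 115, 135, 130.4, 170.1 and 145 CPM in vehicle. Every celecoxib library lay above every rofecoxib library, and vehicle 4 stood just above the highest celecoxib library. The log2 fold change for celecoxib against rofecoxib was 0.27 ± 0.08 (SE), or 1.20-fold, with a 95% interval of 0.09 to 0.44 and a Benjamini-Hochberg adjusted p of 0.649 in edgeR's quasi-likelihood test. It was 0.26 without celecoxib 1. Against vehicle, celecoxib gave 0.18 ± 0.08 (SE, adjusted p = 0.396 by edgeR's quasi-likelihood test) and rofecoxib -0.09 ± 0.08 (SE). The celecoxib value was 0.11 without vehicle 1 and 0.27 without vehicle 4, and the rofecoxib value -0.15 without vehicle 1 and -0.0033 without vehicle 4. With glucocorticoid targets as a covariate, which itself differed between these groups, celecoxib against rofecoxib gave 0.17 for Rbp4. The part of these targets in the Rbp4 difference was not tested.

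Fat markers and Rbp4 showed no correlation past the threshold. Over the 15 libraries r with brown adipocyte markers was -0.19 (adjusted permutation p = 0.918) and with white adipocyte markers -0.01 (adjusted permutation p = 0.990). White adipocyte markers summed to 906 to 2097 CPM in celecoxib libraries, 1314 to 2955 CPM in rofecoxib and 1676 to 3852 CPM in vehicle. Rbp4 and Rarb ran in opposite directions, with rho of -0.78 (adjusted permutation p = 0.0301) and r of -0.63 (adjusted permutation p = 0.101), and with group means subtracted these were -0.33 and -0.31.

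Stra6, the retinol receptor that takes up retinol from Rbp4, lies on chromosome 9 from 57911393 to 58002005 and was near the limit of measurement, with 4 to 26 counts per library. It stood at 0.131 to 0.834 CPM in celecoxib libraries, 0.234 to 0.569 CPM in rofecoxib and 0.230 to 0.476 CPM in vehicle. Both the highest and the lowest level were in celecoxib libraries. Its locus overlaps Ccdc33, which held 6.6 counts per library on average, so counts of Stra6 are uncertain too. The 95% interval of celecoxib against vehicle ran from -0.95 to 0.98 on the log2 scale. Stra6 was highest in celecoxib 4, which also led for Schwann cell markers at 910 CPM, and r with that marker mean was 0.78 (adjusted permutation p = 0.0234) with rho of 0.64 (adjusted permutation p = 0.157). With group means subtracted r was 0.85 (adjusted permutation p = 0.00346) and rho 0.78 (adjusted permutation p = 0.0475). Celecoxib 4 also led for sympathetic neuron and mesothelial markers, whose r with Stra6 was 0.75 (adjusted permutation p = 0.0351) and 0.63 (adjusted permutation p = 0.113). With group means subtracted these were 0.79 (adjusted permutation p = 0.00627) and 0.77 (adjusted permutation p = 0.0220), while rho missed the threshold for both. The mesothelial mean held only the 6 tested of 14 markers, without Msln, Upk3b and Wt1. The part of any of these marker lists in the levels of Stra6 was not tested.

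Taking non-overlap of libraries as a measure, 1 of 9 genes, Dhrs9, lay wholly below vehicle under celecoxib, where 0.740% of all genes did, and 0 of 9 lay wholly above (0.555%). Between celecoxib and rofecoxib, Dhrs9 and Rarb lay wholly below (0.634% of all genes) and Rbp4 wholly above (0.687%). Between rofecoxib and vehicle, 0 of 9 genes were separated, where 0.720% of all genes lay wholly below and 0.436% wholly above. Nothing is read from these counts, since the 9 genes were chosen with results of these libraries known.

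The wider retinoid pathway was followed with a list of 82 further symbols, of which 80 were in the table and 56 were tested. The other 24 had means of at most 0.261 CPM, among them the retinoic acid-clearing Cyp26a1 with 0 to 6 counts per library and the retinol esterifying enzyme Lrat with 0 to 7. In edgeR's quasi-likelihood test, 0 of the 56 were called after Benjamini-Hochberg adjustment in any comparison. At an unadjusted p under 0.05, 13 of 56 (23.2%) passed between celecoxib and vehicle, where 12.5% of all genes passed. There 2 were higher (5.35% of all genes) and 11 lower (7.18%), the latter with the fat cell genes Cd36, Lipe, Lpl, Dgat1 and Rbp7. For rofecoxib against vehicle 5 of 56 passed (8.93%, against 5.18% of all genes), all lower (3.71%). For celecoxib against rofecoxib 6 of 56 passed (10.7%, against 6.96%), 4 higher (4.05%) and 2 lower (2.91%). Nothing is read from these counts either, since the lists were chosen with earlier results of these data known. The median log2 fold change of the 56 genes was -0.03, -0.03 and -0.01 in the 3 comparisons.

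Carriers, uptake and storage genes had the lowest medians of these groups. Over the 9 tested, the median log2 fold change was -0.68 for celecoxib and -0.44 for rofecoxib, each against vehicle, and -0.34 between celecoxib and rofecoxib. The retinol-binding protein gene Rbp7 averaged 1.86 ± 1.22 CPM in celecoxib libraries, 2.68 ± 0.738 CPM in rofecoxib and 3.97 ± 1.52 CPM in vehicle (SD, n = 5 each). Lipoprotein lipase Lpl averaged 361 ± 160 CPM in celecoxib, 464 ± 190 CPM in rofecoxib and 752 ± 366 CPM in vehicle. Lpl, Lipe, Cd36, Dgat1 and Rbp7 are also genes of fat cells, whose markers had negative medians in both comparisons against vehicle. Of the 12 brown adipocyte markers, 11 were lower at an unadjusted p under 0.05 for celecoxib (7.18% of all genes) and 8 for rofecoxib (3.71%), each against vehicle, and 0 were called after adjustment in edgeR. Of the 12 white and general adipocyte markers, 9 were lower for celecoxib and 0 for rofecoxib by the same measure, and 0 were called. Lipe belongs to that list as well. The part of these markers in the differences was not tested.

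Medians of the other lists lay near 0 for dehydrogenases, receptors and targets. The list of breakdown enzymes had medians above 0, but only 2 of its genes were tested. The 17 tested dehydrogenases and reductases had medians of -0.03, -0.01 and -0.03 in the 3 comparisons. Dhrs7, a relative of Dhrs9, averaged 43.7 ± 6.10 CPM in celecoxib, 50.9 ± 3.28 CPM in rofecoxib and 51.3 ± 3.24 CPM in vehicle (SD, n = 5 each). A narrower list of short-chain dehydrogenases related to Dhrs9 had 4 tested members, with medians of -0.0015, 0.09 and 0.14. The 11 tested receptors and partners had 0.03, -0.02 and 0.01, and Rxra, the partner of retinoic acid receptors, averaged 118 ± 5.63 CPM in celecoxib, 121 ± 5.63 CPM in rofecoxib and 123 ± 6.31 CPM in vehicle. The 18 tested retinoic acid target genes had 0.01, -0.02 and 0.01. Tgm2, the transglutaminase induced by retinoic acid, averaged 1238 ± 481 CPM in celecoxib, 879 ± 32.1 CPM in rofecoxib and 959 ± 16.7 CPM in vehicle. Celecoxib 1 held 2089 CPM of Tgm2, and the other celecoxib libraries 958 to 1143 CPM. Hoxa4, a patterning gene induced by retinoic acid, averaged 4.82 ± 0.228 CPM in celecoxib, 6.24 ± 0.806 CPM in rofecoxib and 6.21 ± 0.979 CPM in vehicle. Tbx5, a transcription factor of heart and forelimb, averaged 0.509 ± 0.345 CPM in celecoxib, 0.540 ± 0.273 CPM in rofecoxib and 1.22 ± 0.399 CPM in vehicle. The receptor gene Rarg averaged 73.7 ± 6.01 CPM in celecoxib, 73.0 ± 4.98 CPM in rofecoxib and 80.4 ± 4.45 CPM in vehicle. Of the breakdown enzymes outside the 9 genes only Cyp1b1 and Cyp2s1 were tested, with medians of 0.63, 0.16 and 0.47. For rofecoxib against vehicle their signs differed, with -0.25 for Cyp1b1 and 0.56 for Cyp2s1. Cyp2s1 was scarce, at a mean of 0.480 CPM. Cyp26b1, the retinoic acid-clearing enzyme among the 9 genes, lay at -0.42, 0.29 and -0.71 in the same comparisons. Cyp1b1, which can oxidise retinol, averaged 112 ± 31.8 CPM in celecoxib, 72.3 ± 9.81 CPM in rofecoxib and 85.8 ± 37.8 CPM in vehicle. None of these differences passed the adjusted threshold.

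**Figure D4:**
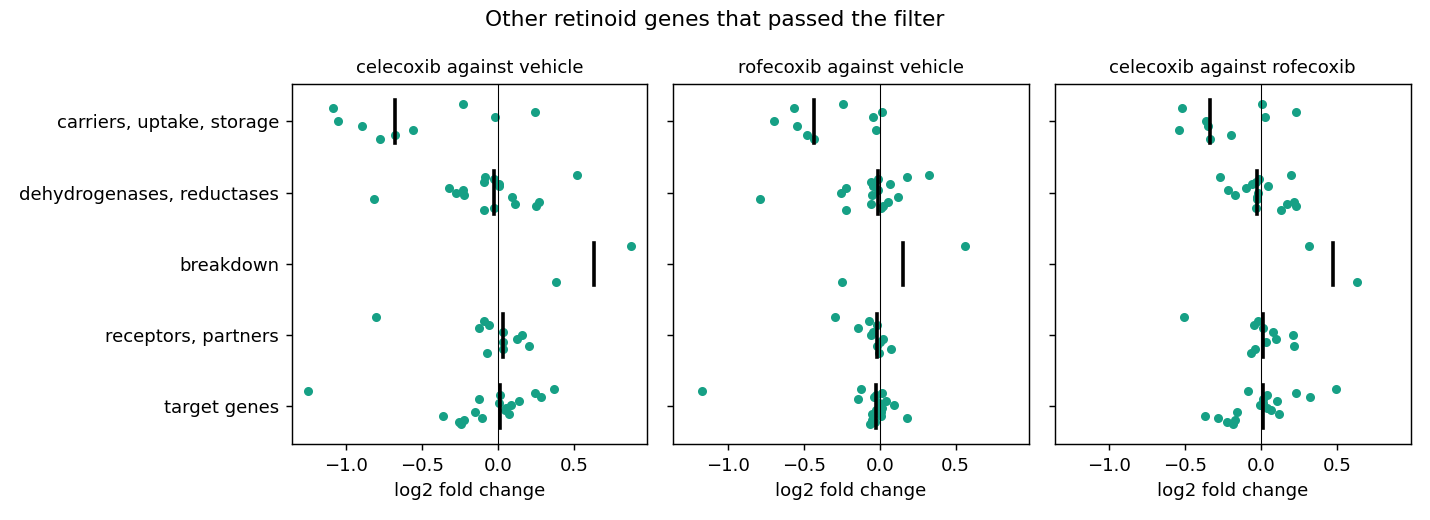
Log2 fold change (horizontal axis) of the tested retinoid genes outside the 9, by list (rows) and comparison (panels), with 1 point per gene and a vertical bar at the list's median. The carriers, uptake and storage list has medians of -0.68, -0.44 and -0.34, while receptors and target genes centre near 0.

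Genes whose levels ranked most like each of the 9 were sought over the 15 libraries among 11885 tested genes with a mean of at least 1 CPM, predicted genes and others without a proper symbol left out. For Dhrs9 these were Tomm5 of the mitochondrial import pore (rho 0.94), the mitochondrial carrier Ucp3 (0.93), the mitochondrial chaperonin Hspd1 (0.92), Csad of taurine synthesis (0.91) and the fatty acid elongase Elovl3 (0.91). Ucp3 averaged 3.03 ± 2.79 CPM in celecoxib, 9.19 ± 4.19 CPM in rofecoxib and 20.3 ± 10.5 CPM in vehicle. That is the order of means of Dhrs9, which choosing by rank over the same libraries makes likely, so nothing is read from it. The nearest gene was the clock factor Npas2 for Rarb (rho 0.81), Rab17 for Cyp26b1 (0.88), Ptges of prostaglandin E2 synthesis for Aldh1a2 (0.81) and the phosphodiesterase Pde4b for Rara (0.86). For Rbp4 it was Mxd4 (0.88), for Aldh1a1 the glutamate receptor gene Gria3 (0.89), for Rdh10 Pdik1l (0.84) and for Stra6 Rab11fip4 (0.95). These are the highest of many correlations and are given as a description.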

How the data were processed

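Polyadenylated RNA of 15 thoracic aortas, 5 each given celecoxib, rofecoxib or vehicle, was measured as whole-number counts per gene in a table the authors deposited, with mm9 coordinates on each row. Per the submitters' processing notes CASAVA 1.8.2, STAR 2.5.2a and mm9 were used. How reads were counted, whether by strand, and with which annotation is not given in the sources used here. Library totals differed by only 0.0971%, and no label records a scaling to 1 common sum, so the original depth is unknown. Libraries were built over 3 days per the labels' protocols, with no day named for any library, so batch could not enter the fit. The labels call the libraries of a group biological replicates. Libraries of a group differed by a chi-square of at least 13.0 per gene, so none agreed within sampling noise.

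Genes passing filterByExpr in edgeR 4.0.16 (R 4.3.3) were fitted over all 15 libraries, with TMM scaling factors of 0.953 to 1.04, by the quasi-likelihood test with robust dispersions, with Benjamini-Hochberg adjustment over 15134 genes at 0.05. Standard errors came from the fold change and F statistic. Simulated counts with known changes were used to check the fit. Exon lengths came from GENCODE vM21, and promoter windows from RefSeq. Correlations used log2 CPM with a prior count of 2 and 100000 permutations. Libraries were permuted freely over all 15, also where group means were subtracted. The permutation p-values with group means subtracted thus take no account of the 3 means removed and may be too small. Alternatives were DESeq2 1.42.0, limma-voom (limma 3.58.1), other filters and scalings, a replicate block, marker covariates and leaving out each library. The 9 genes and all lists were chosen with earlier results of these data known. Named were all 9 genes, the genes of smallest p in the wider lists (3 per list and comparison, not all given) and the genes ranked most like them. Rxra, Cd36, Cyp26a1 and Lrat were named after their values were seen.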

Additional observations from a re-analysis of the deposited data

Results flagged for a closer look

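In a group of 5 libraries, a library was set apart when its gap to the nearest other library exceeded 0.71 of the group's whole range. Of 27 groups of a gene and a treatment examined, 2 held such a library, and chance gives about 1 in 20 groups. Rdh10 in vehicle 3 stood at 19.9 CPM, where the other vehicle libraries held 14.2 to 15.8 CPM. Rarb in rofecoxib 4 stood at 18.4 CPM, where the other rofecoxib libraries held 12.7 to 14.1 CPM.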

How the results depend on the processing

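Leaving out Dhrs9, for which no p-value between groups is given, 500 values of the other 8 genes were obtained under alternative settings. Of these 0 were called, 2 (Stra6 by DESeq2) had no adjusted p, 482 kept their sign, 18 turned sign, and 74 of those that kept their sign moved by over 1.5 times. With the adipocyte covariate Dhrs9 moved to -1.72 for celecoxib and -0.74 for rofecoxib, each against vehicle. With the glucocorticoid target covariate, which itself differed between these groups, Rara moved to 0.22 and Rbp4 to 0.17 between celecoxib and rofecoxib. Between celecoxib and vehicle Stra6 turned to -0.093 with a replicate block, -0.12 with the mesothelial covariate and -0.27 by limma-voom, and Rara to -0.034 with the glucocorticoid target covariate. Between celecoxib and rofecoxib Aldh1a2 turned to -0.018 with the adipocyte and -0.13 with the mesothelial covariate, and Stra6 to 0.12 with the glucocorticoid covariate. Leaving out single libraries gave -0.61 to 0.23 for Stra6 and -0.014 to 0.32 for Rara for celecoxib against vehicle, and -0.17 to 0.35 for Aldh1a2 for celecoxib against rofecoxib. Genes called for celecoxib against vehicle numbered 1 with the mesothelial covariate, 126 by DESeq2 and 0 to 8 without single libraries. For celecoxib against rofecoxib they numbered 4 with the mesothelial covariate, 1 with the glucocorticoid covariate, 19 by DESeq2 and 0 to 1 without single libraries. Of the 9 genes, 1 (Dhrs9) was called for celecoxib against vehicle by DESeq2, and 0 to 1 without single libraries. Nothing is read from these calls, since Dhrs9 was chosen on this comparison. Correlations passing by both measures numbered 0 of 36 between the genes with group means subtracted, in place of 1. With marker lists, 2 of 99 passed by DESeq2 size factors and 2 others with group means subtracted, in place of 0. The first were Dhrs9 with brown adipocyte markers and Cyp26b1 with glucocorticoid targets. The others were Aldh1a1 with sympathetic neuron markers and Stra6 with Schwann cell markers. No pair with a marker list passed under both settings, and the Dhrs9 pair holds the group difference on which Dhrs9 was chosen. The cause was not tested. Same-numbered libraries of different groups correlated at -0.72 to 0.78 in their deviations, with 6 of 15 pairs over 0.1. Of 30 best matches, 4 were to the own number. These values showed no consistent pairing by number, but they cannot exclude such a pairing. The fit with the replicate block called 0 genes in each comparison, which does not test whether libraries were paired. Stra6 had no value under the 1 CPM filter. Aldh1a2, Stra6 and Dhrs9, the 3 genes of lowest level, had the widest standard errors in each comparison, and the part of depth in them was not tested.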
